A study of Mus musculus with 12 samples.

Results

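BMAL1 peaks away from promoters that were called in senescent and not in control cells are examined here. Such distal regions with an E-box were taken from the BMAL1-ChIP-seq of primary mouse adult fibroblasts (MAFs). BMAL1 works in the circadian clock as a dimer with CLOCK, whose canonical binding site is the E-box CACGTG. The study grew MAFs from the ears of female C57BL/6J mice at 3% oxygen. The MAFs were either sham irradiated (control) or exposed to 20 Gy of X-rays (senescent). Both groups received dexamethasone (100 nM), which synchronizes cellular clocks, and were harvested 12 h later, with 3 replicates of each group and an input library for each. The labels give no genotype for these libraries. Both groups shared oxygen level, dexamethasone and collection time and differed by irradiation. The study kept irradiated MAFs in culture for further weeks, and whether control cells were kept as long is not given in the sources used here, so irradiation and time in culture cannot be told apart. The labels do not say whether replicates were separate animals or separate cultures, so p-values here measure the spread between libraries. Peak lists hold no expression values, and the identity of the cells and their senescence could not be checked in them.

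Joining overlapping peaks of the 6 libraries (by 1 bp or more) gave 16818 regions. A region was selected when it held a peak in at least 2 of 3 senescent libraries and in 0 of 3 control libraries, when its midpoint lay more than 1000 bp from every protein-coding start site, and when a CACGTG lay within 100 bp of that midpoint. The selection gave 405 regions. By the same calls alone, 1588 of all 16818 regions (9.44%) and 1047 of 11119 distal regions (9.42%) were senescent-only, against 405 of 1686 distal regions with an E-box (24.0%). The regions were selected on these calls, so the shares and the scores below are descriptions without a test. The mirror set, distal E-box regions with at least 2 control and 0 senescent calls, held 79 of the 1686 (4.69%). The share of control-only calls over all regions and all distal regions was not taken, so the 4.69% has no such baseline beside it. The other distal sets set beside the 405 were 247 E-box regions called in all 6 libraries and 642 senescent-only regions without an E-box.

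CLOCK:BMAL1 is a basic helix-loop-helix dimer that drives its targets through E-boxes in promoters and enhancers, and its best-known targets are the Per, Cry and Nr1d genes that close the feedback loop of the clock. Other dimers of the family, among them USF and the MiT/TFE factors, read the same hexamer, and the bases beside it help to set which of them binds best. AP-1, made of Jun and Fos family proteins, binds TGACTCA or TGAGTCA, is found at enhancers of many cell types and is a known regulator of enhancers in senescent fibroblasts. ChIP-seq finds DNA in the neighbourhood of a protein and does not show which base it touches.

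The first 9 regions below are among the 12 of best mean rank in the senescent libraries, and each region is given with the gene of the nearest start site and 20 bases on each side of its E-box (GRCm38, plus strand, 5′ to 3′, E-box in capitals).
Tusc3 (chr8:39153023-39153068): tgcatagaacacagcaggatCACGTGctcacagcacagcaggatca
Efna3 (chr3:89320622-89320667): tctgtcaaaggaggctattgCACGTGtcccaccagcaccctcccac
Ccnd2 (chr6:127153733-127153778): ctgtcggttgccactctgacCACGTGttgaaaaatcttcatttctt
Pgf (chr12:85192883-85192928): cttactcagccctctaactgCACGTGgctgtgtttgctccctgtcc
Wfikkn2 (chr11:94232463-94232508): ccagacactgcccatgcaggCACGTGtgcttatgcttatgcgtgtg
Arl4c (chr1:88680919-88680964): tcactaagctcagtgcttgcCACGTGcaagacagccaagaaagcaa
Wdr11 (chr7:129778874-129778919): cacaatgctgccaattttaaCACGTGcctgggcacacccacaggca
Galnt2 (chr8:124266044-124266089): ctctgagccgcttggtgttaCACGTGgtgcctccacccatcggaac
Trib1 (chr15:59728455-59728500): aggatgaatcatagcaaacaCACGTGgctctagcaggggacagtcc
The next 2 carry an E-box and an AP-1 motif, both in capitals, at centre-to-centre distances of 9.5 bp and 48.5 bp.
Apba2 (chr7:64584035-64584074): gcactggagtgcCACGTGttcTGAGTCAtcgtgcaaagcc
Pnoc (chr14:65451935-65452013): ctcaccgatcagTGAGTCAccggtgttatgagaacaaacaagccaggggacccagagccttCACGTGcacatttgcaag
The last 4 hold a tandem, an E-box with 6 or 7 bases between it and another CACGTG or a CACGTT or AACGTG, an arrangement at which a pair of CLOCK:BMAL1 dimers can bind side by side. Capitals mark both boxes.
Map3k13 (chr16:21901473-21901520): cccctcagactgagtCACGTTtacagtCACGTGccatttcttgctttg
Cdk6 (chr5:3226417-3226464): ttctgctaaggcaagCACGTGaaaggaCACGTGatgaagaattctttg
Ripk2 (chr4:16161990-16162037): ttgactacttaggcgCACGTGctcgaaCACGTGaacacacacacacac
Acbd6 (chr1:155493400-155493448): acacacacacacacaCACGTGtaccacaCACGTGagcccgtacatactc

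The best mean rank was that of a region in Tusc3, a gene whose product belongs to the oligosaccharyltransferase machinery. The deposited score of a peak was read as its −log10 q-value, an inference from the smallest scores. On that reading a score of 2 is an FDR of 1%. The Tusc3 region (chr8:39152858-39153308) lay in an intron, 147175 bp from the start site. It scored 67.5, 34.5 and 60.4 in senescent replicates 1, 2 and 3 and was called in no control library. The nearest control peak lay 1311591 bp away. The region in an intron of Efna3, which encodes a membrane-bound ephrin ligand, scored 69.7, 31.4 and 41.5 (chr3:89320112-89321018) and was the widest of the 405 at 907 bp. Upstream of Ccnd2, the gene of cyclin D2, a region 2662 bp from the start site scored 26.7, 41.6 and 34.0 and held 2 E-boxes (chr6:127153431-127154012). The region 15086 bp upstream of Pgf, a ligand of the VEGF family, scored 34.1, 36.4 and 22.8. The best score of a selected region was that of Efna3 in replicate 1, Ccnd2 in replicate 2 and Tusc3 in replicate 3.

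Scores grow with the depth of a library, so ranks within each list, as percent of the list from its best score, were used to order the regions. By their mean rank over the 3 senescent libraries the first 12 were those nearest to Tusc3, Efna3, Ccnd2, Pgf, Wfikkn2, Apba2, Hoxb9, Arl4c, Wdr11, Galnt2, Trib1 and Ripply2, with mean ranks from 3.86% to 12.9%. Wfikkn2 encodes a secreted protein that binds GDF8 and GDF11, Apba2 an adaptor of the amyloid precursor protein, and Trib1 a pseudokinase that recruits an E3 ubiquitin ligase to C/EBP proteins. Hoxb9 is a homeobox factor of body-axis patterning, and Ripply2 a repressor at work in somite formation. Arl4c is a small GTPase, and Galnt2 starts mucin-type O-glycosylation. Of the 12, 5 lay in introns, 7 lay within 50 kb of a start site, 4 held 2 E-boxes and 3 held an AP-1 motif. The Wfikkn2 region had a control peak 5897 bp away, and the nearest control peaks of the other 11 lay at distances from 17518 bp to 1311591 bp.

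**Figure D1:**
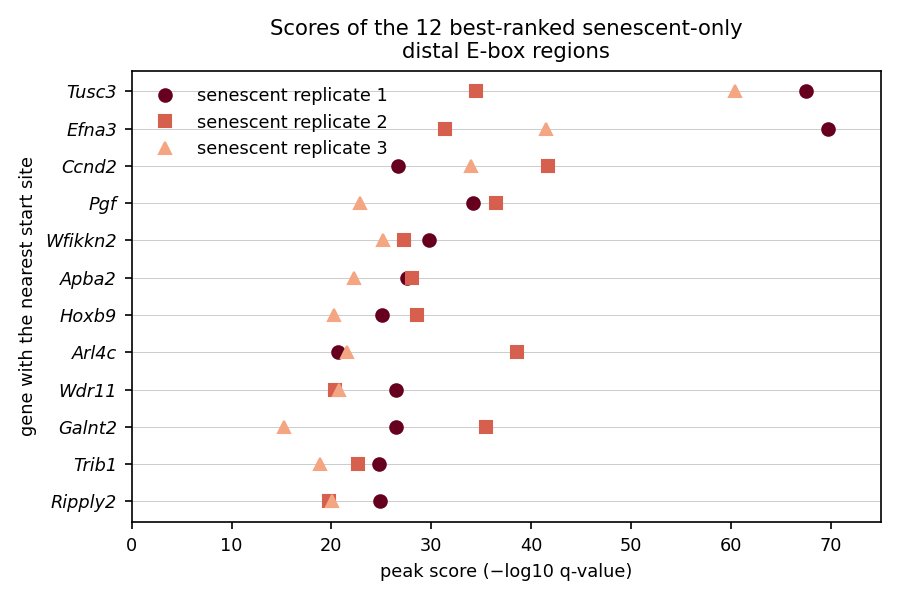
Peak score (read as −log10 q-value) in the 3 senescent libraries of the 12 regions with the best mean rank. Regions are ordered from the best at the top and named by the gene of the nearest start site. No control library called any of them. Tusc3 and Efna3 passed a score of 60 in replicate 1, and no score of the 12 was below 15.

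The 405 regions were spread widely over their lists. Their quartiles of rank were 31.7% and 75.2% in senescent replicate 1, 20.3% and 59.3% in replicate 2, and 28.8% and 73.0% in replicate 3. Their median rank was 50.7% in senescent replicate 1 (320 called regions), 36.8% in replicate 2 (386) and 45.8% in replicate 3 (323), and the median scores were 8.05, 8.87 and 8.32. The best 10% of a list held 4, 25 and 5 of them. Distal E-box regions called in all 6 libraries had median ranks of 12.9%, 6.01% and 10.2% in the same libraries, and senescent-only distal regions without an E-box 61.8%, 47.7% and 57.8%. The order of the 3 sets was thus the same in each senescent library. Regions selected with 0 control calls cannot include those strong enough to be called everywhere, so the selection itself bears on the gap to the regions called in all 6. Widths ran from 146 to 907 bp with a median of 295 bp, against a median of 615 bp in the set called in all 6.

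**Figure D2:**
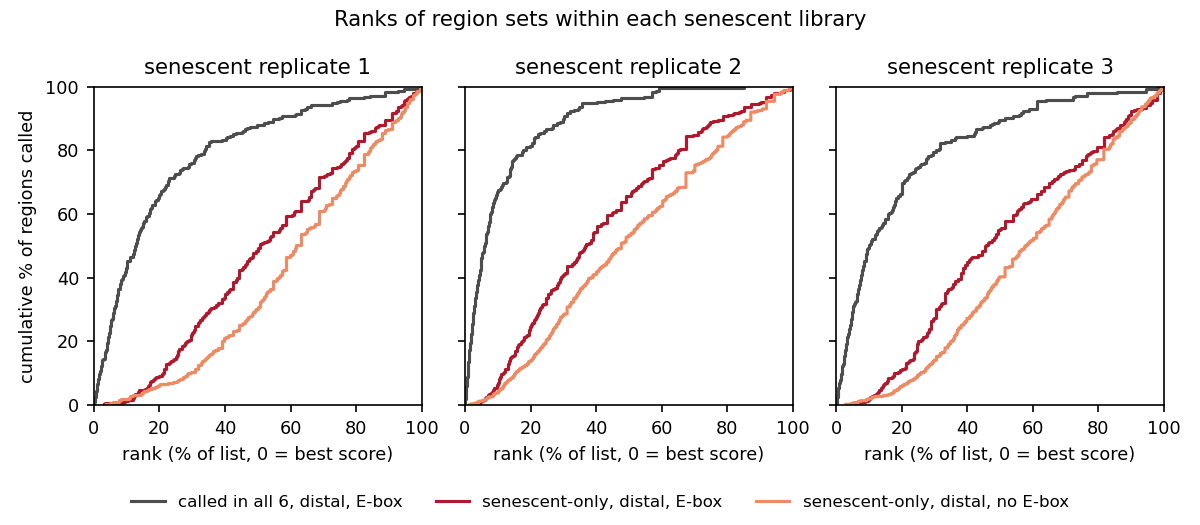
Cumulative share of regions (y axis, percent of the regions called in that library) against rank within the peak list (x axis, percent of the list, 0 being the best score) for 3 distal sets in the 3 senescent libraries. The senescent-only E-box regions (red) run between the E-box regions called in all 6 libraries (grey) and the senescent-only regions without an E-box (orange), with medians of 50.7%, 36.8% and 45.8%.

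All 3 senescent libraries called 219 of the 405 regions (54.1%, 95% Wilson interval 49.2 to 58.9%), against 225 of 642 senescent-only distal regions without an E-box (35.0%). Over all regions, 628 of 16818 (3.73%) had 3 senescent and 0 control calls. The 219 had a median width of 349 bp and a median mean rank of 41.5%, and the 186 called in 2 libraries had 241 bp and 58.5%. Of those 186, 85 were missed by senescent replicate 1, 82 by replicate 3 and 19 by replicate 2. The senescent lists held 4220, 5053 and 9805 peaks in that order of libraries (1, 3, 2), so the shorter lists missed more, and the part of list length in these misses was not tested. The control lists held 2794, 3349 and 10601 peaks. An E-box was present in 26.7%, 20.3% and 11.3% of the distal peaks of the control libraries and in 38.7%, 23.6% and 32.2% of those of the senescent libraries, so that the groups overlapped, with the lowest share of each group in its longest list.

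Just outside the selection lay regions with 1 call more in control or 1 call fewer in senescent cells. With at least 2 senescent calls and 1 control call, 171 distal E-box regions were left out, and that call came from control replicate 3, the longest list, in 132 of them, from replicate 1 in 20 and from replicate 2 in 19. With 1 senescent and 0 control calls, 379 were left out, 245 of them called in senescent replicate 2. Without control replicate 3 the selection would hold 550 regions, and without senescent replicate 2 it would hold 246. With the same number of best-scoring peaks taken from every list it held 253, of which 175 were among the 405, and all 12 leading regions were kept. At the edges of the rule, a region 1014 bp from the start of Slc7a1 was in and one 995 bp from that of Prdx6 was out, and a CACGTG whose far end lay 100 bp from the midpoint near Chst12 was in and one that reached 101 bp near Irf1 was out.

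Distances to control peaks are given without a baseline, since they were not taken for other distal regions. The rule itself left out any region that a control peak overlapped. The nearest control peak lay at a median of 42688 bp from the region, with 17 regions (4.20%) having one within 1000 bp and 82 (20.2%) within 10 kb. The smallest distance was 66 bp, and 11 regions (2.72%) had a control peak within 500 bp. Among the named regions, that in an intron of Nfx1 had one at 740 bp and that in Col2a1 one at 488 bp. For all regions with so near a control peak, the absence of a control call does not mean an absence of control peaks around it. Regions called in all 6 libraries lay at a median of 486432 bp, and 46 of the 405 (11.4%) had one within 50 kb. Each region called in all 6 holds control peaks, so the nearest of them could hardly lie closer than the nearest control peak.

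The E-box sat close to the centre. The E-box nearest the midpoint was centred a median of 31 bp away, within 25 bp in 177 regions (43.7%) and within 50 bp in 288 (71.1%). In distal E-box regions called in all 6 libraries, 65.2% (59.0 to 70.8%) lay within 50 bp, and in the mirror set 67.1% (56.1 to 76.4%). Windows of equal length (200 bp) centred 2000 bp upstream and downstream held a CACGTG in 2.35% of cases (19 of 810). The window of the rule bounds these positions at 100 bp, but within it the boxes were not spread evenly. Altogether the 405 windows held 461 CACGTG, which is 0.178% of the 259109 CACGTG of the mouse genome more than 1000 bp from a start site.

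**Figure D3:**
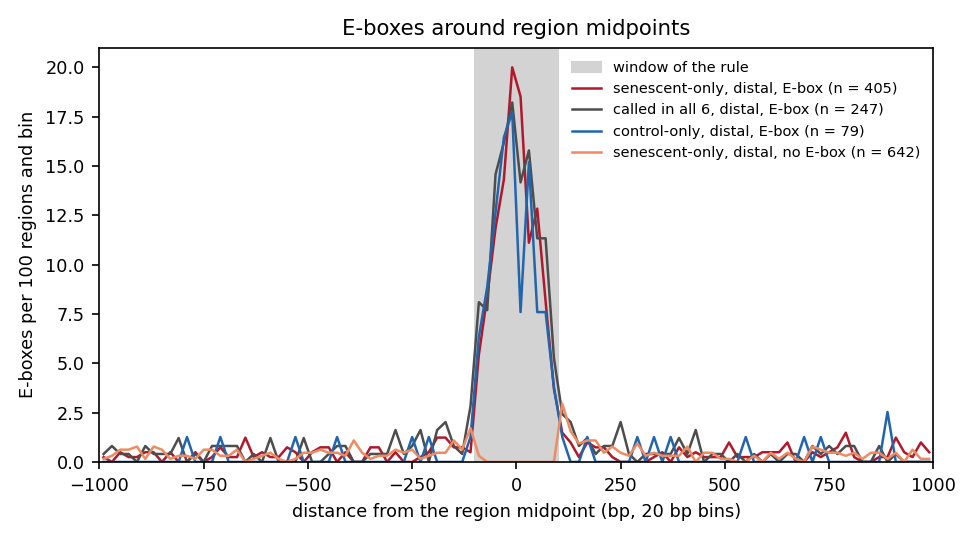
Number of CACGTG E-boxes per 100 regions in bins of 20 bp (y axis) against the distance from the region midpoint in bp (x axis) for the senescent-only E-box regions and 3 other distal sets; the grey band is the window the rule used. The E-box sets peak near the midpoint, with a median distance of 31 bp in the senescent-only regions, and the set without an E-box has none within 80 bp of the midpoint and 2 boxes that cross the left edge of the band.

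Some regions held several E-boxes. Within 100 bp of the midpoint 355 regions held 1 CACGTG, 46 held 2, 2 held 3 and 2 held 4, so that 12.3% (9.49 to 15.9%) had 2 or more. The share was 18.2% (13.9 to 23.5%) in distal E-box regions called in all 6 libraries, 3.80% (1.30 to 10.6%) in the mirror set and 9.96% in all 1686 distal E-box regions. By rank the first 5 with 2 or more boxes were those of Ccnd2, Wdr11, Galnt2, Ripply2 and Sipa1l3. Their extra boxes did not go with better ranks in general, since the median mean rank was 49.1% with 2 or more boxes and 49.2% with 1.

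Tandem E-boxes, of which 4 are printed above, occurred in 10 of the 405 regions (2.47%, 1.35 to 4.48%), with 6 bases between the boxes in 7 and 7 bases in 3. The share was 4.45% (2.50 to 7.80%) in distal E-box regions called in all 6, 1.66% in all distal E-box regions and 0 of 79 in the mirror set. The region of best rank among them lay in an intron of Map3k13, a kinase upstream of JNK, and scored 14.5, 21.7 and 22.3 in the 3 senescent libraries. It also held an AP-1 motif 16.5 bp from the E-box. The tandem 117439 bp upstream of Cdk6, the kinase partner of D cyclins, scored 19.3, 19.7 and 11.3, and 89.5% of its window was soft-masked as repeat. The tandem in an intron of Ripk2, a kinase of NOD signalling, scored 13.2 and 15.3 and was missed by replicate 3, and that near Acbd6 scored 8.40, 9.46 and 10.6. Col2a1, the gene of type II collagen, held an AACGTG 6 bases before an E-box and scored 8.35 and 5.58 in replicates 2 and 3. Of all 405, 32 (7.90%) had their E-box in a soft-masked repeat, close to the 7.71% of all distal E-box regions.

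The bases beside the E-box were next compared with those of the genome. Counted together with its reverse complement, ACACGTGC was the most frequent octamer at the E-box nearest the midpoint, in 83 regions (20.5%, 16.8 to 24.7%), followed by CCACGTGC in 62 (15.3%) and ACACGTGA in 52 (12.8%). In all 1686 distal E-box regions the first was also ACACGTGC (16.6%, 14.9 to 18.5%), with CCACGTGC next (14.1%), so this order was not particular to the 405. Among distal CACGTG of the genome ACACGTGC made up 13.6% and CCACGTGC 10.2%, and the most frequent octamer was CCACGTGA at 15.5%, which stood at 11.6% (8.84 to 15.1%) in the 405. The octamer TCACGTGA, which MiT/TFE and USF dimers are known to bind well, was the least frequent of the 10 classes in the 405 with 7 regions (1.73%, 0.840 to 3.52%). The genome gave 5.16%, distal E-box regions called in all 6 gave 0.810% (0.222 to 2.90%), and the mirror set 3.80% (1.30 to 10.6%). All 1686 distal E-box regions gave 2.49% (1.85 to 3.35%). At promoters the share was higher, with 19 of 197 senescent-only promoter regions with an E-box (9.64%, 6.26 to 14.6%) at TCACGTGA. The interval of the 405 lay below those of the genome and of the senescent-only promoter regions, and overlapped those of the other distal sets. That of all 1686 distal E-box regions also lay below the genome, so the low share was not particular to the 405. With only peaks above the median score the share in the selected regions was 3.05% (1.56 to 5.91%), which included the value of the genome. Without senescent replicate 2 it was 0.407% (1 of 246). The TCACGTGA regions lay nearest to Cd2, Rab3gap2, Cpt1a, Tanc1, Hmga2, Lrig3 and Fndc3b, names given because there are few of them and chosen after their values were seen, apart from Cd2 and Hmga2.

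An AP-1 motif lay within 100 bp of the midpoint in 90 of the 405 regions (22.2%, 18.4 to 26.5%). It lay in 4.07% of the windows 2000 bp away. The mirror set had it in 5 of 79 (6.33%, 2.73 to 14.0%) and distal E-box regions called in all 6 in 34 of 247 (13.8%, 10.0 to 18.6%), while senescent-only distal regions without an E-box had it in 239 of 642 (37.2%, 33.6 to 41.0%). Over all 11119 distal regions the share was 22.5%, over all 1686 distal E-box regions 18.3% and over all 16818 regions 16.4%. The senescent-only E-box regions thus stood above the mirror set, with intervals that did not overlap, and below the senescent-only regions without an E-box, likewise without overlap. Their share was close to that of distal regions as a whole. The AP-1 motif was centred at a median of 54.5 bp from the nearest E-box (4.5 to 170.5 bp), and in 25 of the 90 it was within 30 bp of it.

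Regions with both motifs included 3 of the 12 leading ones. In the Apba2 region, in an intron 51033 bp upstream of the nearest start site, TGAGTCA began 3 bases after the E-box, and its scores were 27.5, 28.1 and 22.3. The Hoxb9 region scored 25.1, 28.5 and 20.3 with the motif 89.5 bp from the E-box, and the Ripply2 region 24.8, 19.7 and 20.0. Next in rank came a region upstream of Pnoc, the gene of prepronociceptin, with 26.2, 15.4 and 20.0, and an intron of Clec2g with 15.3, 19.7 and 29.7. The median mean rank was 44.0% for the 90 regions with AP-1 and 51.4% for the 315 without, and all 3 senescent libraries called 51 of the 90 (56.7%) and 168 of the 315 (53.3%).

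To set the AP-1 share against the spread between libraries, all distal peaks with an E-box were taken in each library, whether or not they belonged to the 405 regions. AP-1 was present in 14.9%, 15.3% and 16.6% of these peaks in control replicates 1, 2 and 3 and in 20.8%, 19.8% and 19.7% in the senescent replicates. Every senescent library lay above every control library. The means were 15.6% ± 0.877 (SD, n = 3) and 20.1% ± 0.631 (SD, n = 3), a difference of 4.50 percentage points (exact two-sided permutation test over 20 arrangements, p = 0.1, the smallest that 3 against 3 libraries can give; adjusted p = 0.4 over 4 such tests by Benjamini-Hochberg). Peaks that overlapped none of the 405 regions gave a difference of 3.12 points in the same direction with no overlap between groups (exact permutation p = 0.1). The senescent lists contain the selected regions and the control lists by construction do not, and the second value holds none of them. Only these were removed, however. The 79 regions of the mirror set, 6.33% of them with AP-1, stayed in the control lists. The 379 regions with 1 senescent and 0 control calls stayed in the senescent lists. The second value is therefore not free of the contrast in calls.

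**Figure D4:**
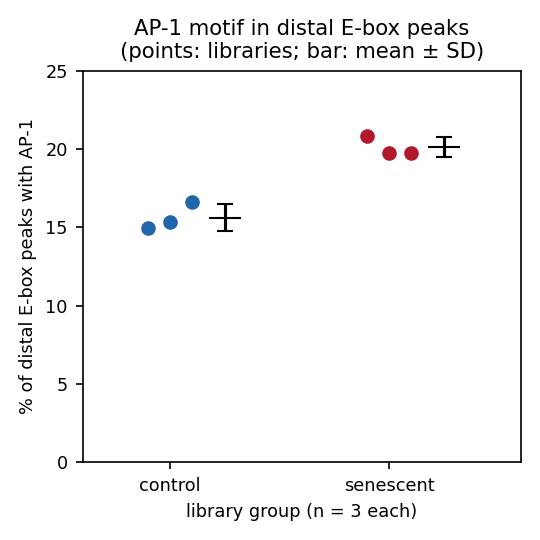
Percent of distal E-box peaks with an AP-1 motif within 100 bp of the centre (y axis, from 0) in each of the 3 control and 3 senescent libraries, with mean and SD beside the points. Control libraries lay between 14.9% and 16.6% and senescent libraries between 19.7% and 20.8%.

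The groups overlapped in the other features tested in this way. The tandem share of distal E-box peaks was 1.65% ± 0.383 in control libraries and 2.20% ± 0.546 in senescent ones (SD, n = 3 each, exact permutation p = 0.3, adjusted p = 0.533). The TCACGTGA share was 2.03% ± 0.750 and 1.96% ± 0.226 (n = 3 each, exact permutation p = 0.9, adjusted p = 0.9). The share of intronic peaks was 49.0% ± 1.46 and 47.9% ± 0.407 (n = 3 each, exact permutation p = 0.4, adjusted p = 0.533). With start sites 3000 bp away or more, the intron difference was −2.21 points (exact permutation p = 0.1). These p-values do not show that the groups were alike.

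Other motifs were counted in the same windows. The TEAD motif (GGAATGT or GGAATGC, both strands) was in 38 of the 405 (9.38%, 6.91 to 12.6%), against 4.94% of the windows 2000 bp away, 11.3% (7.96 to 15.9%) of distal E-box regions called in all 6 and 13.2% of all distal regions. The RUNX motif (TGTGGTTA or TGTGGTTT) was in 11 (2.72%, 1.52 to 4.80%), the same share as in their flanking windows, against 6.33% of all distal regions, and in 9 of 79 regions of the mirror set (11.4%, 6.11 to 20.3%), whose interval did not overlap that of the 405. CATGTG, a variant of the E-box, was in 118 (29.1%, 24.9 to 33.7%), against 14.7% of flanking windows and 44.9% (41.1 to 48.7%) of senescent-only distal regions without CACGTG. The NF-Y motif (CCAATCA or CCAATGA) was in 23 (5.68%), near the 5.85% of all distal regions. The ETS motif (CCGGAAGT) was in 0 of 405, which allows a share of up to 0.940% by the Wilson interval and so includes the 0.414% of all distal regions. A glucocorticoid receptor pattern was found in 1 region (0.247%), near the 0.450% of all distal regions, and in 3 of 79 regions of the mirror set (3.80%, 1.30 to 10.6%). Exact patterns miss weaker forms of a site, so absence of these letters says nothing about the factor.

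**Figure D5:**
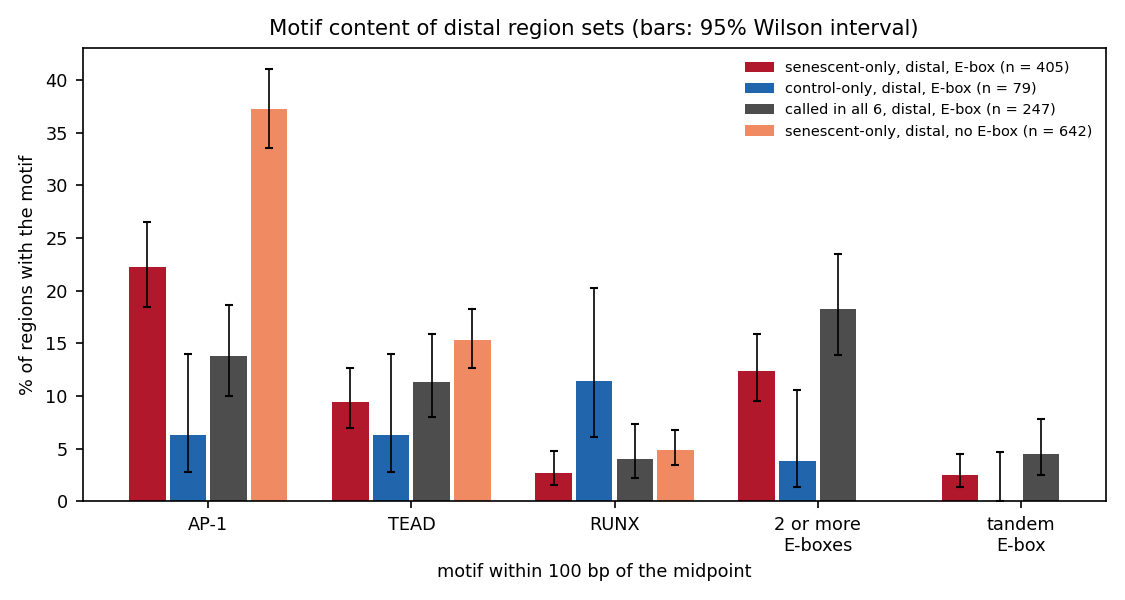
Percent of regions with each motif within 100 bp of the midpoint (y axis, from 0) in the senescent-only E-box regions (red) and 3 other distal sets, with 95% Wilson intervals; E-box counts are left out for the set chosen to have none. AP-1 stands at 22.2% in the senescent-only E-box regions, between the mirror set at 6.33% and the senescent-only regions without an E-box at 37.2%.

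By position, 197 of the 405 regions (48.6%, 43.8 to 53.5%) lay in introns, 194 (47.9%) between genes, 10 in exons and 4 in UTRs. All 1686 distal E-box regions gave 48.8% in introns. Of the intronic ones 163 lay in the gene whose start site was nearest. The median distance to a start site was 24697 bp (1014 to 514023 bp), with 71 regions (17.5%) within 5 kb and 270 (66.7%, 61.9 to 71.1%) within 50 kb. In the mirror set the median was 49898 bp, and 40 of 79 (50.6%, 39.8 to 61.4%) lay within 50 kb, while all distal E-box regions gave 68.5% and all distal regions 67.2%, near the share of the 405. The regions lay downstream of the nearest start site in 253 cases (62.5%, 57.7 to 67.0%), near the 59.9% of all distal E-box regions and the 59.0% of all distal regions, and 54.3% (48.0 to 60.4%) did so among distal E-box regions called in all 6. The regions closest to a start site were those of Slc7a1 (1014 bp), Kmt2c (1036 bp) and Nfx1 (1052 bp), and the farthest those of Gja1 (501736 bp), Gdf6 (513414 bp) and Hsbp1 (514023 bp), of which the last lies in an intron of Cdh13. All 19 autosomes held some, from 33 on chromosome 11 to 10 on chromosome 19, and none lay on X or Y. The cells came from female mice, so the absence from Y is not a finding. Counts per chromosome are not given for other distal regions, so the absence from X has no baseline.

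The 405 regions were nearest to 397 protein-coding genes, 1.82% of the 21864 annotated. A nearest gene is a name for a place and is not shown to be a target. Of the 397, 131 (33.0%) had a BMAL1 region within 1000 bp of a start site in at least 1 library, against 21.1% of 21840 protein-coding genes, and 10 (2.52%) had one called in all 6 libraries, against 2.22%. Only 8 genes were nearest to 2 of the regions, which were Galnt2, Rgs8, Ccnd2, Sipa1l3, Mical3, Fam43a, Hmga2 and Fgd2, and none was nearest to 3. At Ccnd2 the regions lay 1448 bp apart, and that closer to the start site (1214 bp upstream) scored 6.30, 11.9 and 4.10, well below the leading one. At Hmga2, a chromatin protein of growing and senescent cells, they lay 149956 bp apart, and both were missed by senescent replicate 1.

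Of 26 core clock and clock output genes 1 (3.85%, against 1.82% of all genes) was nearest to one of the regions, which was Nfil3, a repressor that competes with DBP at D-boxes. Its region, in an intron 6163 bp past the start site, held 2 E-boxes and scored 11.5, 13.5 and 13.4, with a control peak 5093 bp away.
Nfil3 (chr13:52974853-52974898): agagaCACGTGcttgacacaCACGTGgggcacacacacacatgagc
Of 15 AP-1 subunit genes 2 (13.3%, against 1.82% of all genes) were nearest, Fosl1 and Fosl2, which encode the Fos family proteins FRA1 and FRA2. The Fosl1 region lay in an intron 1170 bp from the start site and scored 6.42, 15.2 and 7.24, and a region called in all 6 libraries lay 8095 bp away. The Fosl2 region lay 167421 bp upstream in an intron of Babam2 and scored 10.3, 5.86 and 6.10. Neither held an AP-1 motif in its window. Both E-boxes are shown because their nearest start sites belong to genes of the factor whose motif the study names.
Fosl1 (chr19:5448765-5448810): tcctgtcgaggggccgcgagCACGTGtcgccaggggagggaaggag
Fosl2 (chr5:31968374-31968419): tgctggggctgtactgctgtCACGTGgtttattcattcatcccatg

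TGF-beta and BMP pathway genes gave the most by count, 6 of 39 (15.4%, against 1.82% of all genes). The 1.82% covers all protein-coding genes, whether or not a distal BMAL1 region lies near them. How many of the 39 were nearest to other distal regions is not given. The 15.4% is thus not shown to be particular to the senescent-only E-box regions. Acvr1b, a type I activin receptor, had an intronic region with an AP-1 motif that scored 11.3, 15.8 and 13.4. Smad5, a transducer of BMP signals, had one 10721 bp upstream that also held AP-1 and scored 8.40, 9.00 and 6.44. These were called in all 3 senescent libraries. The other 4 were called in 2. The regions of the ligand gene Tgfb2 (9.19 and 5.22), the co-receptor gene Tgfbr3 (6.79 and 5.19) and Smad3 (5.86 and 4.13), which transduces TGF-beta signals, were missed by replicate 1, and that in an exon of Ltbp4, which encodes a binding protein of latent TGF-beta, was missed by replicate 3 (3.44 and 12.4 in replicates 1 and 2). The Smad3 scores ranked 67.4% and 89.5% in their lists, near the end.

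Of 20 genes of CDK inhibitors and the p53 pathway 2 (10.0%, against 1.82% of all genes) were nearest, Mdm2, whose product degrades p53, and Gadd45g, a stress-response gene. The Mdm2 region lay in an intron of the neighbouring Cpm and scored 9.10, 6.51 and 15.3. The Gadd45g region, 123585 bp downstream, held an E-box and an AP-1 motif 17.5 bp apart and scored 5.70, 7.39 and 5.66, with a control peak 1023 bp away. Of 42 MAPK pathway genes 2 (4.76%) were nearest, Dusp4 and Dusp1, which encode phosphatases that switch off MAP kinases. The Dusp4 region, 2239 bp upstream, scored 25.2, 25.3 and 15.5 and had the best mean rank of the list genes (13.6%), and the Dusp1 region scored 11.4 and 9.44 in replicates 2 and 3. Of 34 collagen and matrix genes 3 (8.82%) were nearest, Col2a1, Col5a1 and Fbn2, each called in 2 libraries. None of 39 secreted senescence factors and none of 35 lysosome and autophagy genes was nearest to one of the regions, and at the 1.82% of all genes lists of this size would hold fewer than 1 such gene.
Dusp4 (chr8:34804953-34804998): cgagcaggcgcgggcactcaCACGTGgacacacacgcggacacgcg
Gadd45g (chr13:51970184-51970229): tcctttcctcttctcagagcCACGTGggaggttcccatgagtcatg
Smad3 (chr9:63743426-63743471): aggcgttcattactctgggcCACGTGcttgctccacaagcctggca
These 3 are shown as the list gene of best mean rank, the list gene whose E-box lies closest to an AP-1 motif, and a gene the study names.

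Of 12 genes the study names from its own comparison of these libraries, 3 were nearest to one of the regions (Kdm6b, Smad3 and Col2a1). The study chose them on these samples, so this count is not independent. It names them in opposite directions, Kdm6b and Smad3 for more binding in senescent cells and Col2a1 for less. Those directions come from a differential comparison of peaks, a measure unlike the presence of calls used here. The study's text does not give the peak behind each gene, which may be another than the region here. The Col2a1 region had senescent calls alone, with a control peak 488 bp away. Kdm6b, a histone H3K27 demethylase, had a region 29833 bp upstream in an intron of Dnah2 that scored 14.6, 11.4 and 17.7 and was called in all 3 senescent libraries. Over the 9 lists together, 17 of 256 genes (6.64%) were nearest to one of the regions, against 1.82% of all protein-coding genes. This pool includes the genes the study named, of which Smad3 and Col2a1 also stand in other lists. The lists were chosen with earlier results of these data known, so the pooled share is not independent either. Genes with large surroundings are more often nearest to a distal region, and the part of that in these shares was not tested. For none of the lists is the share nearest to other distal regions, with or without an E-box, given beside it. Neither the list shares nor the pooled share is thus shown to be particular to the senescent-only E-box regions.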

How the data were processed

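BMAL1-ChIP-seq peak lists of 3 control and 3 senescent libraries were used. Groups and replicate numbers came from the sample titles. The 6 input libraries were not analysed here. The authors fixed cells for 10 min in 1% formaldehyde, tagmented the precipitated chromatin, mapped read pairs to mm10 with the Burrows-Wheeler Aligner, removed duplicates with Picard and called peaks with MACS at an FDR of at most 1%, for each library on its own. The methods and the labels name different suppliers of the BMAL1 antibody, and the sources used here do not say whether the input served as control of the peak calls. The score the authors deposited was read as the −log10 q-value. This was inferred, since the smallest score of each list lay between 2.02 and 2.12. It depends on the depth of its library, which peak lists do not give, so peaks were ordered by rank within their list (ties share a mean rank), and scores are printed as deposited and are not comparable between libraries.

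Peaks were merged at an overlap of at least 1 bp. Start sites, introns, exons and UTRs were those of protein-coding transcripts in GENCODE M21 (basic set, GRCm38), and motifs were exact matches on both strands of the GRCm38 reference sequence within 100 bp of the midpoint. Overlapping matches of different motifs were each counted. Shares carry 95% Wilson intervals, which cover counting error only, since regions are not replicates. Library values were compared with an exact permutation test. The scripts (Python 3.11.15, NumPy 2.4.6, SciPy 1.17.1, Matplotlib 3.10.9) were tested on simulated peaks.

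Regions were named by rule: the 12 of best mean rank called in all 3 senescent libraries, up to 5 for each of 9 gene lists, genes nearest to 2 regions, the first 5 with a tandem, an AP-1 motif or several E-boxes, those at the edges of the rule, and the 3 nearest to and farthest from a start site. The regions and lists were chosen with earlier results of these data known. Alternatives were a stricter score, equal list lengths, other overlaps, windows, distances and start sites, 3 of 3 senescent calls, autosomes and X only, each library left out, peaks outside the selected regions, and the replicate block.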

Additional observations from a re-analysis of the deposited data

How the results depend on the processing

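The number of senescent-only distal E-box regions was 405. It was 262 with peaks above their list's median score, 253 with equal peak numbers, 219 with calls in all 3 senescent libraries, and 246 to 550 with a library left out (lowest without senescent replicate 2, highest without control replicate 3). The E-box share of senescent-only distal regions, 38.7%, was 50.8% above the median score, 48.7% with equal peak numbers, 49.3% with 3 of 3 calls, 26.5% in a window of 50 bp, 44.0% anywhere in the region, and 35.4% to 47.6% with a library left out. The AP-1 share of 22.2% was 12.3% within 50 bp and 29.3% anywhere in the region, where the searched length itself changed, and 20.9% to 24.3% with a library left out. The TCACGTGA share of 1.73% was 3.05% above the median score, 0.457% with 3 of 3 calls and 0.407% to 2.36% with a library left out, the lowest without senescent replicate 2. The share called in all 3 senescent libraries, 54.1%, was 47.8% with equal peak numbers and 54.2% to 56.2% with a control library left out, and cannot be had without a senescent library. The cause of these shifts was not tested.

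Between groups, the AP-1 difference of 4.50 points kept its sign under all 12 alternatives. The TCACGTGA difference of −0.0672 points turned to 0.457 above the median score, 0.444 within 50 bp and 0.0903 outside the selected regions, and ran from −0.425 to 0.323 with a library left out, changing sign without control replicate 3 (0.323) and without senescent replicate 1 (0.0408). The intron difference of −1.08 points turned to 0.0819 above the median score and 0.332 within 50 bp. With a start site distance of 3000 bp it was −2.21 points. Of 156 alternative values, 17 moved beyond their interval (counts by over 1.5 times), 7 changed sign and the other 132 did neither. Some of the 132 could not move, since no selected region lay on Y and the replicate block leaves the differences as they were.

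With the replicate block (libraries of the same number paired, exact sign-flip test, smallest p 0.25), the differences were those of the unpaired comparison by construction, and p was 0.25 for AP-1 (4.50 points), 1 for TCACGTGA (−0.0672), 0.5 for the tandem share (0.551) and 0.5 for introns (−1.08). Deviations of scores from the group means correlated at 0.0755, −0.0507 and −0.0177 in same-numbered libraries over 1106 regions. Libraries of different numbers gave −0.0887 to 0.0893. No pairing was seen in these scores, which cannot show whether same-numbered libraries share an origin.

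Depth is unknown from peak lists. A missing control call is not an absence of binding, and p-values below 0.1 cannot be reached with 3 against 3 libraries.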
